A study of Mus musculus with 12 samples.

Results

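The genes described here encode the mechanistic target of rapamycin (mTOR) kinase, the partner proteins that assemble with it, and the proteins that switch it on and off at the lysosome. They are Mtor, Mlst8, Deptor, Rptor, Akt1s1, Rictor, Tsc1, Tsc2, Tbc1d7 and Rheb. They were taken by gene symbol. All 10 were found among the 30154 genes of the deposited tables, and all 10 passed the filter on low counts that left 15890 genes for testing.

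The mTOR kinase works in a pair of complexes. mTORC1 is defined by raptor (Rptor) and drives protein synthesis and cell growth when amino acids and growth factors are present, and mTORC2 is defined by rictor (Rictor) and phosphorylates AKT. The TSC complex (Tsc1, Tsc2, Tbc1d7) is the GTPase-activating complex of the small GTPase Rheb, which activates mTORC1 when bound to GTP. Sestrins are stress-induced proteins that hold mTORC1 down through the GATOR complexes when leucine is scarce, and in muscle stem cells mTORC1 activity accompanies the exit from quiescence after injury.

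Muscle stem cells were sorted by flow cytometry from hind limb muscle (tibialis anterior, quadriceps and gastrocnemius) of C57BL/6J mice aged 2 to 3 months. The groups were wild type (WT) and Sestrin1,2 knockout (KO), each before injury (here day 0), and 7 and 21 days after injury, with 2 libraries per group and 12 in all. The labels do not give the kind of injury, the design of the knockout alleles, or whether the libraries of a group came from separate mice, so p-values measure only the spread between these libraries, which may be technical. Full-length cDNA was made with the SmartSeq v4 protocol and read as single 76-base reads, without strand.

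Total estimated counts per library lay between 28396862 and 38950614. The targeted gene Sesn2 was at a CPM (estimated counts scaled to library size) of 75.1 and 84.3 in the WT libraries of day 0 and of 5.47 and 7.03 in KO. The WT libraries of day 7 had 44.9 and 47.4 CPM and the KO libraries 2.36 and 1.92. The day 21 libraries labelled WT had 8.92 and 82.1 CPM, and those labelled KO had 9.86 and 108. Sesn2 therefore went against the label of day 21 WT replicate 1 and of day 21 KO replicate 2, and the genotypes of day 21 are given below by label only. In the main edgeR fit, which holds all 12 libraries, Sesn2 did not pass between genotypes. Its log2 fold change in KO was -3.675 at day 0 (adjusted p = 0.0580) and -4.42 at day 7 (adjusted p = 0.170). When edgeR was run without any day 21 library, it was -3.70 at day 0 (adjusted p = 6.35e-06) and -4.42 at day 7 (adjusted p = 6.19e-06). Sesn1 was at 70.3 and 68.6 CPM in WT and at 46.0 and 45.8 in KO at day 0, and Sesn3, which was not targeted, was at 1.94 and 2.32 CPM in WT and at 1.58 and 2.32 in KO.

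The sorted cells carried muscle stem cell transcripts in every library: Pax7 lay between 3.14 and 19.2 TPM, the length-corrected transcript level and Myod1 between 79.7 and 273.6. Several marker lists moved with genotype at day 0. The summed level of 8 skin and sebaceous genes was 171 and 181 TPM in WT and 2.74 and 2.82 in KO, where Krt5, Krt14, Krt15 and Awat1 were listed at 0, and 7 of 7 tested were lower in KO. The 10 muscle stem cell markers summed to 986 and 957 TPM in WT and 735 and 712 in KO, and 7 of 10 were lower. The 5 red blood cell markers summed to 3121 and 3128 TPM in WT and 782 and 743 in KO, and all 5 were lower. Smooth muscle and pericyte markers summed to 6654 and 6643 TPM in WT and 9859 and 9662 in KO, and 3 of 6 were higher. The 10 cell cycle genes summed to 64.3 and 61.1 TPM in WT and 22.6 and 25.4 in KO, and 8 were lower. Muscle fibre markers summed to 35.5 and 33.6 TPM in WT and 15.8 and 15.2 in KO, and 3 of 6 were lower. Myogenic differentiation markers summed to 179.6 and 193.9 TPM in WT and 106.4 and 107.7 in KO, and 2 of 6 were lower. Glial markers summed to 654 and 686 TPM in WT and 888 and 906 in KO, and 2 of 5 were higher. Of 7 markers each, 1 fibro-adipogenic one was lower and 1 endothelial one higher. The fibro-adipogenic markers summed to 6451 and 6261 TPM in WT and 5041 and 4978 in KO. Over all 12 libraries they summed to between 4978 and 9674 TPM, above the 712 to 1781 of the muscle stem cell markers. Dcn alone lay between 2388 and 8071 TPM. Dissociation stress genes summed to 9080 and 9681 TPM in WT and 11590 and 12600 in KO, and 3 of 8 were higher. Immune markers summed to 2033 and 2048 TPM in WT and 3514 and 3406 in KO with 0 of 7 called, and nearly all of that sum was Lyz2, at 2027 and 2043 TPM in WT and 3508 and 3401 in KO. The part of these in the day 0 differences below was not tested, and in bulk samples fewer cells of a type and less RNA per cell cannot be told apart.

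Per length, in TPM, Rheb was the most abundant of the 10 genes in every library, at 133 to 226 TPM. Deptor followed at 47.5 to 82.1 TPM and Akt1s1 at 33.4 to 57.7 TPM, 2 neighbours whose ranges overlapped. Below them came Tbc1d7 at 4.61 to 18.3, Mtor at 6.52 to 10.98 TPM, Rptor at 3.22 to 9.56 and Tsc1 at 2.68 to 8.50 TPM. Mlst8 at 0.662 to 5.15, Tsc2 at 0.118 to 6.36 and Rictor at 1.52 to 3.04 TPM were the lowest. The ranges of these last 7 overlapped each other in part, so their order is not the same in each library.

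**Figure D1:**
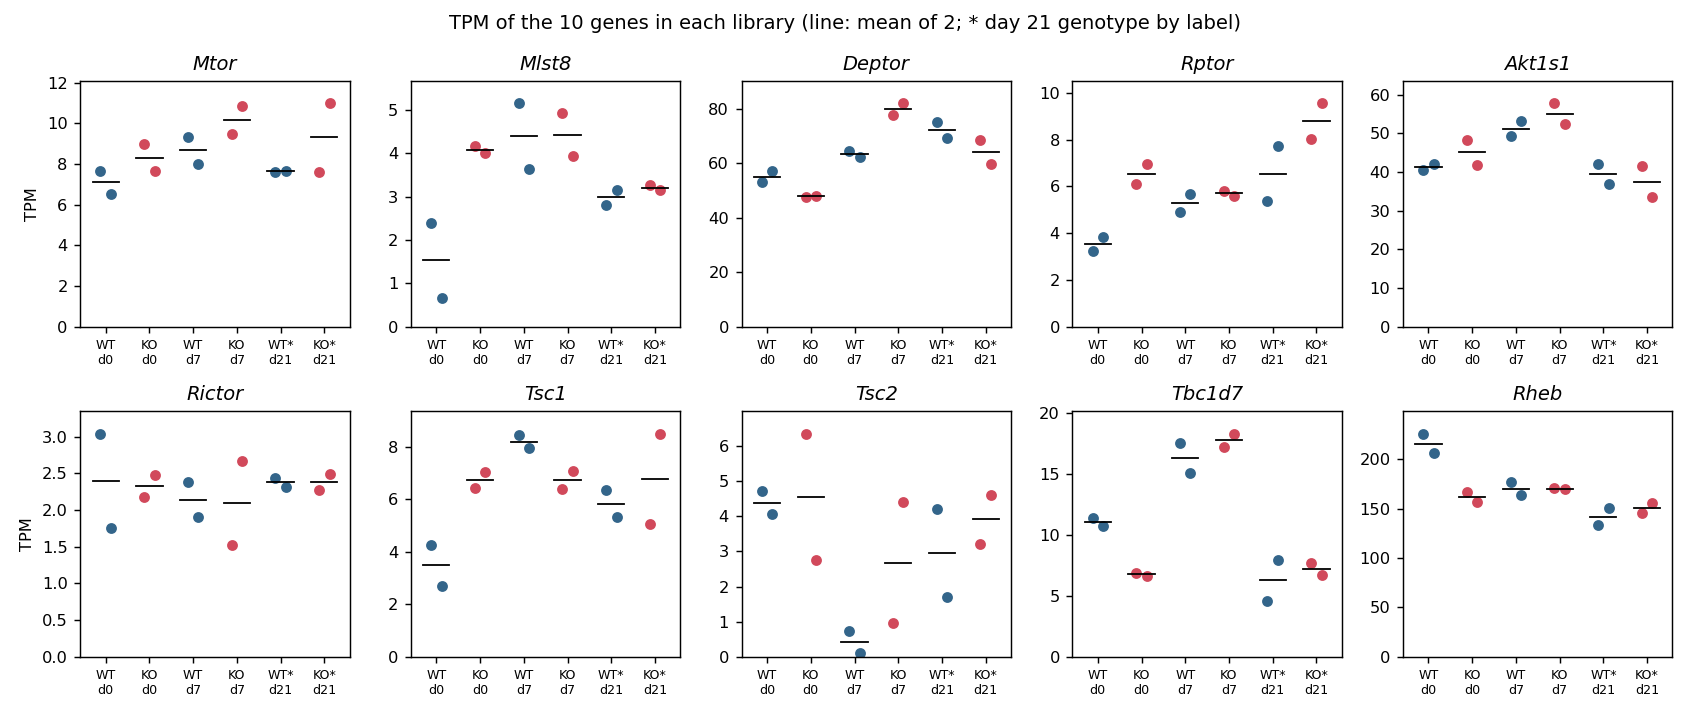
Level in TPM (vertical axes, each from 0) of the 10 genes in each of the 12 libraries, as points by genotype and day, with a line at the mean of 2 and stars at day 21, where Sesn2 goes against 1 label in each group. Rheb stands highest in the WT libraries of day 0, Tbc1d7 is highest at day 7 in both genotypes, and Tsc2 is lowest in the WT libraries of day 7.

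In uninjured cells, 7 of the 10 genes passed the test between genotypes, against 27.4% of all genes tested. On counts, 4 were higher in KO (Mtor, Rptor, Tsc1 and Mlst8) against 14.8% of all genes, and 3 were lower (Rheb, Deptor and Tbc1d7) against 12.6%. Rictor, Akt1s1 and Tsc2 did not pass. The median log2 fold change of the 10 genes was 0.05, beside 0.0022 over all genes tested. In 8 of the 10 the WT and KO libraries did not overlap in CPM, as was so for 75.1% of all genes. The count was 3 without day 0 WT replicate 2, 4 without day 0 KO replicate 1 and 4 without day 0 KO replicate 2, fits in which the lone library of a group is assumed to vary like the others.

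**Figure D2:**
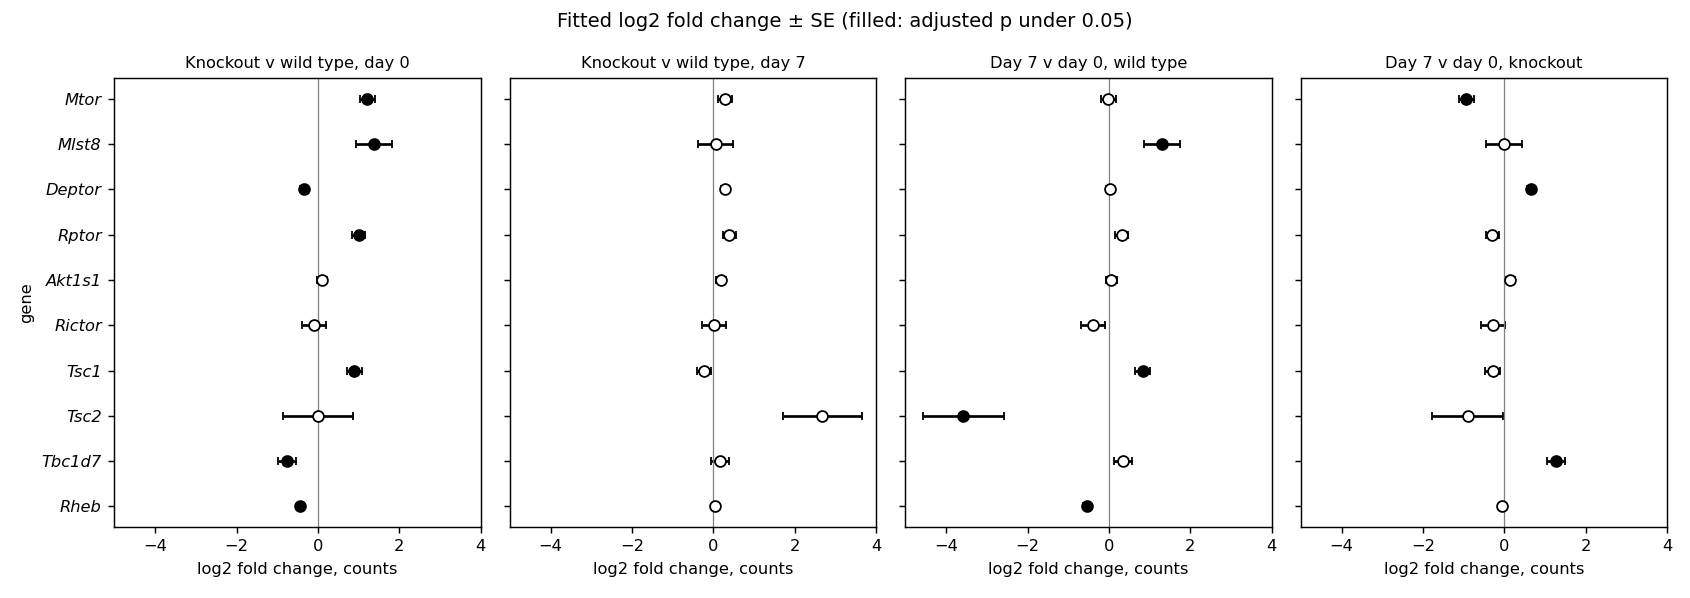
Fitted log2 fold change on counts (horizontal axes) with its standard error for the 10 genes, in 4 comparisons. Filled points passed at an adjusted p under 0.05, which held for 7 genes between genotypes at day 0, 0 at day 7, 4 for injury in WT and 3 for injury in KO.

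Mtor, the kinase shared by both complexes, lies at chr4:148448611-148557683 on the plus strand (GRCm38). Its estimated counts were 524 and 636 in the WT libraries of day 0 and 1220 and 1078 in KO, so that CPM was 16.4 and 16.8 in WT and 37.1 and 39.7 in KO, with no overlap. The log2 fold change on counts was 1.21 (SE 0.179, adjusted p = 0.00146, edgeR quasi-likelihood test). In TPM, which divides by transcript length, the same libraries stood at 7.66 and 6.52 in WT and at 8.96 and 7.67 in KO, a difference within about the spread of each pair. An edgeR fit with an offset for length gave a log2 fold change of 0.17 (adjusted p = 0.521).

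Counts and TPM of a gene are tied by the length of the transcripts to which its reads were assigned. The ratio of the count to the TPM gives the mean effective length of the transcripts that received reads, which is the transcript length less 299 bases. For Mtor it was 2493 and 2977 bases in the WT libraries of day 0 and 5040 and 6181 bases in KO. At day 7 it was 2546 and 2621 bases in WT and 3148 and 2145 in KO, and at day 21 it was 5425, 6156, 5986 and 6453 bases over the 4 libraries. The libraries thus fell into short (day 0 WT and all of day 7) and long (day 0 KO and all of day 21), with no overlap.

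GENCODE annotates 4 Mtor transcripts, and their lengths bound how the molecules were divided. Mtor-202, the full-length coding transcript, has 8564 bases. Mtor-201 has 1003 bases and codes for the first exons only. Mtor-203 of 2229 bases and Mtor-204 of 598 bases are annotated as retained introns. The share of Mtor TPM assigned to Mtor-202 lay between 8.89% and 27.5% in day 0 WT replicate 1 and between 16.5% and 33.6% in replicate 2. It lay between 49.1% and 59.5% in day 0 KO replicate 1 and between 67.1% and 73.8% in replicate 2. All 4 libraries of day 7 lay between 3.4% and 35.8%, and all 4 of day 21 between 55.2% and 77.3%. In absolute terms the full-length transcript stood at 0.682 to 2.19 TPM in day 0 WT and at 4.40 to 5.67 TPM in day 0 KO, while the others together stood at 4.33 to 6.98 TPM in WT and 2.01 to 4.56 TPM in KO. Those bounds come from the annotated lengths and cover neither counting error nor unannotated transcripts.

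**Figure D3:**
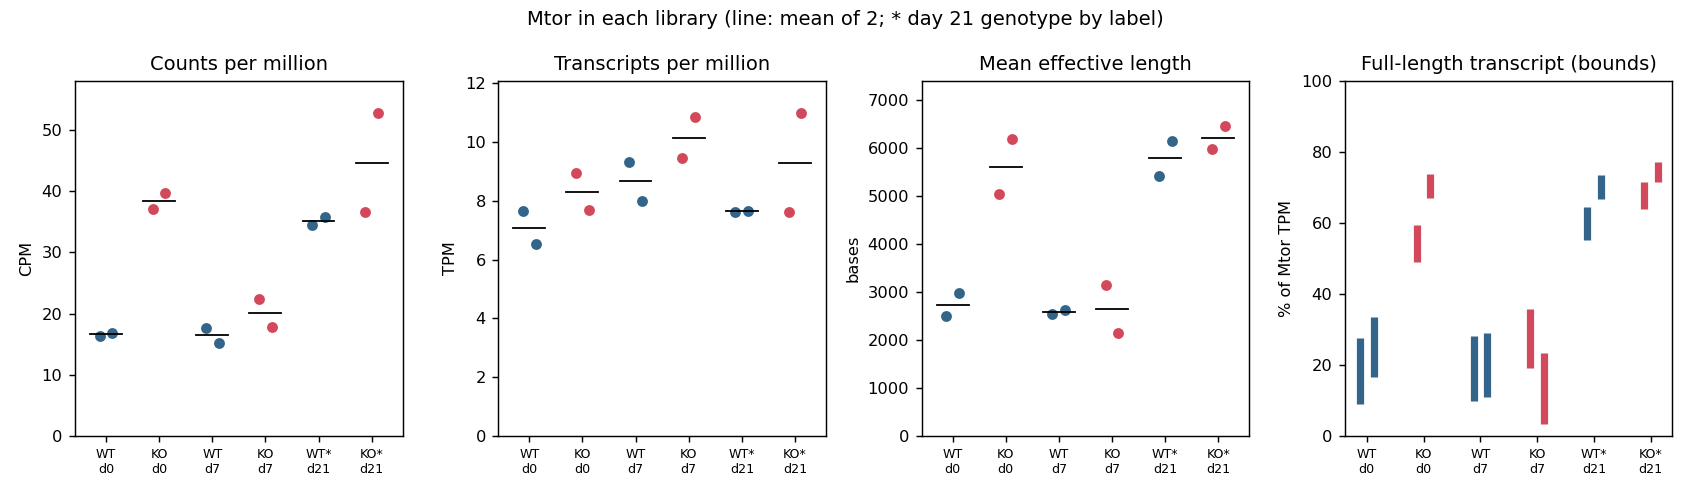
Mtor in each library as CPM, as TPM, as the mean effective length in bases and as the bounds on the percentage of its TPM assigned to the full-length transcript (bars from lowest to highest), with day 21 starred for its labels. CPM and length are high in day 0 KO and at day 21, while TPM lies between 6.52 and 10.98 throughout.

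The point at which the short coding transcript leaves the full-length one is shown because it is where the 2 products differ. Both share 705 coding bases over the first 4 coding exons, up to chr4:148454752-148454752. Mtor-202 is then spliced to the next exon and goes on to a protein of 2549 residues. Mtor-201 reads on past that exon end into the intron and stops after 256 residues, before the kinase domain. The last 30 shared bases are in lower case and the 66 bases that follow in each transcript are in capitals.
Mtor-201: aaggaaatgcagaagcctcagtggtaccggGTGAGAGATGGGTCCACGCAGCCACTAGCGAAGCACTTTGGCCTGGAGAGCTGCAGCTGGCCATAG
Mtor-202: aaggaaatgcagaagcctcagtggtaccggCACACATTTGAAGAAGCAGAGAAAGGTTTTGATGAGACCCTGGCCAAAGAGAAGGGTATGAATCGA

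The differences in Mtor length were tested with limma on log2 effective length over 8807 genes, a measure added after the disagreement of counts and TPM was seen. In KO against WT at day 0 the difference was 1.04 (SE 0.191, adjusted p = 0.0635), which did not pass, with 0.715% of genes called, and its size ranked 47 among the 8807 genes. In day 7 against day 0 of KO it was -1.10 (adjusted p = 0.0667), also short of the threshold, with 0.466% of genes called. In day 21 against day 7 over both genotypes it was 1.21 (SE 0.135, adjusted p = 0.00967), which passed, with 2.43% called, and it ranked 10. Mtor did not pass in the other comparisons either: day 21 against day 0 (0.62, adjusted p = 0.0877, 1.21% called), day 7 against day 0 in WT (-0.08, 0.67% called), the interaction (-1.03, adjusted p = 0.239, 0.0681% called), and genotype at day 7 (0.0086, 0.0454% called) and at day 21 by label (0.10, 0.0114% called). The median difference over all genes lay between -0.0138 and 0.0107. Of the 10 genes, 6 entered this test (Mtor, Rptor, Akt1s1, Deptor, Tsc1 and Rheb), and among them a difference of 1 on this scale was reached by Mtor alone.

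Mlst8, the scaffold subunit of both complexes, lies at chr17:24473551-24479078 on the minus strand. Its TPM was 2.40 and 0.662 in the WT libraries of day 0 and 4.18 and 4.0 in KO, so the groups did not overlap but the WT pair was far apart. The log2 fold change was 1.38 (SE 0.450, adjusted p = 0.0462, edgeR). This call rests on the exact set of libraries: it did not pass when any library other than day 0 WT replicate 1 was left out. Without day 0 WT replicate 2, the lowest library, the fold change was 0.73 (adjusted p = 0.111), and without day 0 WT replicate 1 it was 2.57 (adjusted p = 0.00409). Without each of the others it lay between 1.36 and 1.40, with adjusted p between 0.0555 and 0.143.

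Deptor, a subunit that inhibits mTOR, lies at chr15:55112317-55259271 on the plus strand. It was at 53.3 and 57.1 TPM in the WT libraries of day 0 and at 47.5 and 48.2 in KO, with both KO libraries below both WT ones. The log2 fold change was -0.35 (SE 0.0937, adjusted p = 0.0198). It was not called with the offset for length, at -0.26 (adjusted p = 0.154). Leaving out any 1 of the 4 libraries of day 0 also ended the call, with values from -0.36 to -0.33 and adjusted p from 0.0902 to 0.129.

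Rptor, the subunit that recruits substrates to mTORC1, lies at chr11:119602905-119899576 on the plus strand. Its TPM was 3.22 and 3.82 in the WT libraries of day 0 and 6.09 and 6.95 in KO, with no overlap. The log2 fold change on counts was 1.00 (SE 0.163, adjusted p = 0.00229), and it passed in all 25 alternatives, with fold changes from 0.67 to 1.13. Its effective length differed little between these groups, at 4379 and 4155 bases in WT and 4684 and 4841 in KO.

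Akt1s1 encodes PRAS40, a raptor-bound inhibitor released on phosphorylation by AKT, and lies at chr7:44848991-44855421 on the plus strand. It was at 40.5 and 41.9 TPM in the WT libraries of day 0 and at 48.2 and 41.9 in KO, so the groups overlapped in TPM, while both KO libraries were above both WT ones in CPM. The log2 fold change was 0.10 (SE 0.131, adjusted p = 0.608). Rictor, which defines mTORC2 (chr15:6708379-6800401, plus strand), was at 3.04 and 1.76 TPM in WT and 2.18 and 2.48 in KO, with the KO pair inside the WT pair. Its log2 fold change was -0.09 (SE 0.294, adjusted p = 0.859).

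The subunits of the TSC complex did not move together at day 0. Tsc1, the scaffold that stabilises Tsc2 (chr2:28641228-28691167, plus strand), was at 4.27 and 2.68 TPM in WT and at 6.44 and 7.05 in KO. Its mean effective length lay between 2022 and 2986 bases over the 12 libraries, while its annotated coding transcripts have 7296 to 7403. Much of the Tsc1 TPM was thus assigned to shorter transcripts, annotated as retained introns or nonsense-mediated decay. The groups did not overlap in TPM, and the log2 fold change on counts was 0.89 (SE 0.184, adjusted p = 0.00652). Without day 0 WT replicate 2 it was 0.75 (adjusted p = 0.0636), short of the threshold.

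Tbc1d7, the third subunit of the TSC complex (chr13:43151740-43171501, minus strand), was at 11.4 and 10.7 TPM in the WT libraries of day 0 and at 6.85 and 6.66 in KO, both KO libraries being lower. Its log2 fold change was -0.76 (SE 0.225, adjusted p = 0.0302). Leaving out any 1 library of day 0 ended the call, with values from -0.79 to -0.72 and adjusted p from 0.0979 to 0.141. Tsc2, the subunit with the GTPase-activating domain (chr17:24595816-24632630, minus strand), was at 4.72 and 4.06 TPM in WT and at 6.36 and 2.77 in KO. The KO pair lay on both sides of the WT pair, and the standard error of its log2 fold change was 0.859, the largest of the 10 genes at day 0, so only a large difference could have passed.

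Rheb (chr5:24802823-24842624, minus strand) was at 226 and 206 TPM in the WT libraries of day 0 and at 167 and 157 in KO. Both KO libraries were lower, and the log2 fold change was -0.45 (SE 0.0804, adjusted p = 0.00350). The call held in all 25 alternatives, with values from -0.51 to -0.39. Rhebl1, a close relative of Rheb, was at 1.19 and 3.74 TPM in WT and 1.99 and 2.15 in KO, and its log2 fold change of -0.20 (SE 0.540, adjusted p = 0.829) did not pass.

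The promoters of Rheb and Tbc1d7 are shown because these 2 genes were lower in KO at day 0 and because both hold the E-box letters CACGTG, the palindrome bound by basic helix-loop-helix factors such as MYC, TFEB and CLOCK. Sequences of the 250 bases before the start (RefSeq, GRCm38.p6) were found for 9 of the 10 genes, all but Deptor. CACGTG was found in Rheb and Tbc1d7 and in 6.02% of all 32851 promoter windows of that length. Its first base lies 96 bases before the RefSeq start of Rheb and 53 bases before that of Tbc1d7. The windows are chr5:24842362-24842611 for Rheb and chr13:43171502-43171751 for Tbc1d7, both on the minus strand. The Rheb window lies inside the GENCODE span of the gene, chr5:24802823-24842624, so it is upstream of the RefSeq start but not of the GENCODE one. The E-box is in capitals.
Rheb: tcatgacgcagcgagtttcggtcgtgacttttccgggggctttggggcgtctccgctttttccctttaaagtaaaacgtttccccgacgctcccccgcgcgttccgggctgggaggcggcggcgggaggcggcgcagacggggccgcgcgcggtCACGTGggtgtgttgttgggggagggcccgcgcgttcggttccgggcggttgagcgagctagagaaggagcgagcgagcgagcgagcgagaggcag
Tbc1d7: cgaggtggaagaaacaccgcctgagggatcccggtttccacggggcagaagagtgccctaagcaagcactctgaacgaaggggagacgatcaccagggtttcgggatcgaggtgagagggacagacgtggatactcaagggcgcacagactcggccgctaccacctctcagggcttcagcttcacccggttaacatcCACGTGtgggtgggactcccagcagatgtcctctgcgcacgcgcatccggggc

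A second motif, the ETS letters CCGGAAGT on either strand, was found in the windows of Mtor, Akt1s1 and Tsc2 and in 2.88% of all windows. The Akt1s1 window, like that of Rheb, lies inside the GENCODE span of its gene. A match is a description of the letters and not of a bound factor. The windows of Mlst8, Rptor, Rictor and Tsc1 held neither motif.

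At day 7 after injury 0 of the 10 genes passed between genotypes, against 1.76% of all genes tested (1.08% higher and 0.68% lower). At an unadjusted p under 0.05 there were 3 (Tsc2, Deptor and Rptor), beside 2268 of all 15890 genes, and DESeq2 called 0. The median log2 fold change of the 10 was 0.18. In 6 of 10 WT and KO did not overlap, beside 47.4% of all genes. Cell cycle genes summed to 542 to 591 TPM over the 4 libraries of that day, with 0 of 10 called between genotypes. Smooth muscle and pericyte markers summed to 2594 and 2600 TPM in WT and 3850 and 3900 in KO, and 2 of 6 were higher. Of the glial markers 1 of 5 was higher, and of the immune ones 1 of 7 lower. Their part in the values of the 10 genes was not tested.

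Deptor came closest at day 7. It was at 64.6 and 62.2 TPM in WT and at 77.7 and 82.1 in KO, with no overlap, and its log2 fold change was 0.28 (SE 0.0933, adjusted p = 0.198). When edgeR was run without any day 21 library it was 0.28 and passed (adjusted p = 0.0303). Rptor was at 4.92 and 5.69 TPM in WT and 5.81 and 5.6 in KO, with a log2 fold change of 0.39 (SE 0.161, adjusted p = 0.298). Rheb was at 177 and 164 TPM in WT and 172 and 170 in KO, and its log2 fold change was 0.05 (SE 0.0803, adjusted p = 0.872). The difference in Rheb seen at day 0 was thus not detectable at day 7.

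Day 7 was set against day 0 within each genotype. In WT, 4 of 10 passed, against 47% of all genes: Tsc1 and Mlst8 were higher, beside 25.8% of all genes, and Rheb and Tsc2 lower, beside 21.2%. In KO, 3 of 10 passed, against 46.9%: Tbc1d7 and Deptor were higher, beside 24.7%, and Mtor lower on counts, beside 22.2%. Whether these shares differ from those of all genes was not tested. In 7 of 10 the days did not overlap in WT and in 7 of 10 in KO, beside 79.6% and 76.1% of all genes. The count in WT was 2 without day 0 WT replicate 2. Myogenic differentiation markers rose over the same interval, 6 of 6 in each genotype, from 106 to 194 TPM summed at day 0 to 2809 to 4401 at day 7. Cell cycle genes rose as well, 10 of 10 in each genotype, and immune markers had 5 of 7 higher and 1 lower in each. Dissociation stress genes fell, 7 of 8 in each genotype, to between 4593 and 5449 TPM summed. Glial markers had 4 of 5 lower and smooth muscle and pericyte markers 4 of 6 lower in each genotype. In WT, 5 of 5 red blood cell and 6 of 7 skin and sebaceous markers were lower, and in KO 1 of 5 was lower and 1 of 7 higher. Of the muscle fibre markers 5 of 6 were higher in each genotype. Muscle stem cell markers had 4 of 10 higher in WT and 6 in KO, and fibro-adipogenic ones 3 of 7 in WT and 4 in KO, with 1 of each lower in each genotype. Endothelial markers had 1 of 7 lower in WT and 4 in KO. Their part in the changes of the 10 genes was not tested.

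Rheb fell in WT by 0.55 on the log2 scale (SE 0.0804, adjusted p = 0.000343), from 226 and 206 to 177 and 164 TPM, with no overlap between the days. In KO it started at 167 and 157 TPM and ended at 172 and 170, a log2 fold change on counts of -0.06 (SE 0.0803, adjusted p = 0.587). The change in KO less that in WT was 0.49 (SE 0.114, adjusted p = 0.0216). In that interaction 4 of 10 genes passed, against 13.5% of all genes, 2 upwards beside 6.08% and 2 downwards beside 7.39%. In the same interaction 4 of 10 cell cycle genes, 3 of 10 muscle stem cell, 3 of 6 muscle fibre and 2 of 6 myogenic differentiation markers were higher, and 2 of 8 dissociation stress genes lower. Their part in the values of the 10 genes was not tested.

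Tsc1 rose in WT by 0.83 (SE 0.183, adjusted p = 0.00396), from 4.27 and 2.68 to 8.43 and 7.95 TPM, again with no overlap, and without day 0 WT replicate 2 by 0.67 (adjusted p = 0.0514). In KO it went from 6.44 and 7.05 to 6.38 and 7.08 TPM, with a log2 fold change on counts of -0.29 (adjusted p = 0.217). The change in KO less that in WT was -1.12 (SE 0.258, adjusted p = 0.0211). With the offset for length in edgeR it was -1.15 and did not pass (adjusted p = 0.0880). Mlst8 rose in WT by 1.31 (SE 0.448, adjusted p = 0.0356), from 2.40 and 0.662 to 5.15 and 3.63 TPM. Without day 0 WT replicate 1 it was 2.48 (adjusted p = 0.000446), without day 0 WT replicate 2 it was 0.64 (adjusted p = 0.102) and without day 7 WT replicate 1 it was 1.02 (adjusted p = 0.178). The day 0 WT libraries were the lowest of all 12 for Mlst8.

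Deptor rose in KO by 0.65 (SE 0.0939, adjusted p = 0.000267), from 47.5 and 48.2 to 77.7 and 82.1 TPM. In WT it went from 53.3 and 57.1 to 64.6 and 62.2 TPM, and on counts its log2 fold change was 0.02 (adjusted p = 0.867). The change in KO less that in WT was 0.63 (SE 0.132, adjusted p = 0.0158). Tbc1d7 rose in KO by 1.27 (SE 0.226, adjusted p = 0.00105), from 6.85 and 6.66 to 17.2 and 18.3 TPM, a rise that held in all 25 alternatives. In WT it went from 11.4 and 10.7 to 17.5 and 15.0 TPM, with a log2 fold change of 0.34 (adjusted p = 0.238), and the difference between the genotypes, 0.93 (SE 0.313, adjusted p = 0.0768), did not pass. It passed in 7 of 25 alternatives, among them DESeq2 (0.96, adjusted p = 0.0454), the run without any day 21 library (0.95, adjusted p = 0.0136), without both libraries that Sesn2 contradicts (0.92, adjusted p = 0.0183), and without day 21 WT replicate 1 (0.92, adjusted p = 0.0302) or replicate 2 (0.93, adjusted p = 0.0301).

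Mtor fell in KO by 0.93 on counts (SE 0.177, adjusted p = 0.00156), from 37.1 and 39.7 to 22.4 and 17.7 CPM. In TPM it went from 8.96 and 7.67 to 9.46 and 10.8, and with the offset for length the log2 fold change was 0.14 (adjusted p = 0.557), which did not pass. In WT it was at 17.6 and 15.3 CPM at day 7 and its log2 fold change on counts was -0.01 (adjusted p = 0.965). The change in KO less that in WT was -0.92 on counts (SE 0.251, adjusted p = 0.0375) and 0.09 with the offset (adjusted p = 0.869). With a replicate block in the edgeR fit it was -0.92 on counts and did not pass (adjusted p = 0.05425).

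The 4 interaction calls of Mtor, Tsc1, Deptor and Rheb depend on single libraries. None of the 10 genes passed without day 0 WT replicate 2, without day 0 KO replicate 1, without day 0 KO replicate 2 or without day 7 WT replicate 2. Of the 4, only Deptor passed without day 7 WT replicate 1, only Tsc1 without day 0 WT replicate 1, and Tsc1 and Deptor without day 7 KO replicate 2. Without day 0 WT replicate 1 Mlst8 passed as well, at -2.52 (adjusted p = 0.0127). The day 0 libraries of each genotype enter both its injury comparison and the genotype comparison of day 0, so these values share samples.

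Tsc2 had the widest range of the 10 genes, from 19.0 to 982 estimated counts between libraries, a 51.7-fold span. In WT it was at 741 and 761 estimated counts at day 0 and at 129 and 19.0 at day 7, which is 4.72 and 4.06 against 0.726 and 0.118 TPM. The log2 fold change was -3.58 (SE 0.991, adjusted p = 0.0186). Without day 7 WT replicate 2, the lowest library, it was -2.80 (adjusted p = 0.0876), and without day 0 WT replicate 1 it was -3.49 (adjusted p = 0.0562), and both miss the threshold. Without day 7 WT replicate 1 it was -5.45 (adjusted p = 0.0211). In KO at day 7 the 2 libraries stood at 0.956 and 4.40 TPM, 1 below and 1 within the 2.77 to 6.36 TPM of day 0, and the log2 fold change was -0.90 (SE 0.873, adjusted p = 0.438).

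The Tsc2 counts have a limit that the other genes share to different degrees. The mean effective length of Tsc2 was 5719 bases in every library, which is that of a single transcript, Tsc2-201 of 6018 bases, whereas GENCODE annotates 22. Of these 22, 21 carry high, later-issued Ensembl numbers, and the deposited gene sums appear not to hold such transcripts. Among 4078 genes with any such transcript, 64 (1.57%) had whole-number counts in all 12 libraries, against 2806 of 7017 (40%) of genes without one, with a tolerance of 0.001 and at least 50 counts. Where reads are shared out among transcripts, a change in the split between Tsc2-201 and the rest would change this count. The same holds for Rictor (4 of 5 transcripts), Mlst8 (8 of 10) and Tbc1d7 (8 of 10), less for Akt1s1 (2 of 12), Deptor (1 of 4) and Rheb (1 of 4), and not for Mtor, Rptor and Tsc1, which have 0. The part of this in the Tsc2 values was not tested.

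The genes with the log2 CPM most alike to that of Tsc2 over the 12 libraries were Cyp26a1 (Pearson r = 0.922), Map9 (r = 0.899) and Vps13d (r = 0.898). The 12 libraries share depth and composition, and no p is given.

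Ratios of TPM within a library set partner genes against each other, each gene being summed over the transcripts assigned to it. Much of the Tsc1 TPM was assigned to shorter transcripts, annotated as retained introns or nonsense-mediated decay. The Tsc2 TPM had the length of a single transcript, and the deposited sum appears not to hold the others. The Tsc1 to Tsc2 ratio therefore does not measure the proportion of the coding transcripts or of the subunits. The Tsc1 to Tsc2 ratio was 0.905 and 0.660 in the WT libraries of day 0 and 11.6 and 67.3 at day 7. In KO it was 1.014 and 2.55 at day 0 and 6.67 and 1.61 at day 7, where the days overlapped. Over both genotypes the day 7 ratio was higher by 3.10 on the log2 scale, 5.18 in WT alone and 1.03 in KO alone (exact permutation test of 4 against 4 libraries, two-sided p = 0.0571, adjusted p = 0.171 over 3 ratios), short of the threshold, where the smallest p possible is 0.0286.

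The Rptor to Rictor ratio, which sets the subunit of mTORC1 against that of mTORC2, was 1.06 and 2.17 in the WT libraries of day 0 and 2.79 and 2.81 in KO. It was between 2.07 and 3.83 at day 7, higher by 0.37 on the log2 scale than at day 0 (exact permutation p = 0.4). The Deptor to Mtor ratio was 6.95 and 8.75 in WT and 5.31 and 6.28 in KO at day 0, and between 6.92 and 8.22 at day 7, a difference of 0.18 on the log2 scale (exact permutation p = 0.343). That difference was 0.45 in KO alone, -0.0888 in WT alone and 0.82 on estimated counts.

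**Figure D4:**
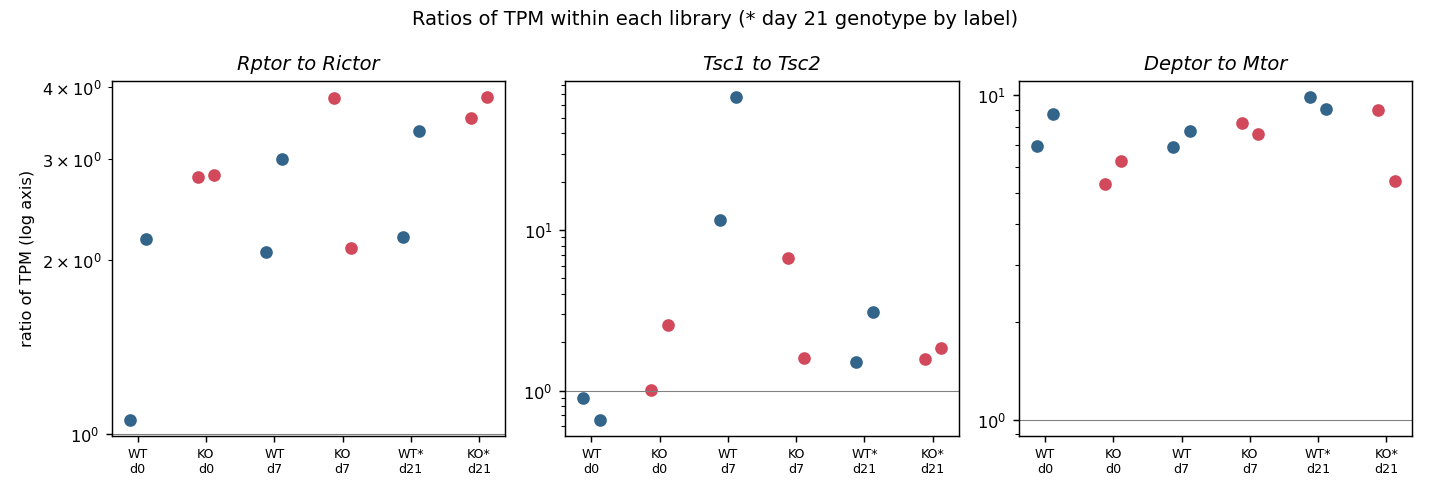
Ratio of TPM within each library on a log axis, for Rptor to Rictor, Tsc1 to Tsc2 and Deptor to Mtor, with day 21 starred for its labels. The Tsc1 to Tsc2 ratio reaches 67.3 in a WT library of day 7, and the days overlap in all 3 ratios. Much of the Tsc1 TPM lies in shorter transcripts and the Tsc2 TPM appears to hold a single transcript. Their ratio therefore does not measure the proportion of the subunits.

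Set against day 0 over both genotypes, day 21 had 5 of 10 genes called, against 45.9% of all genes. Rptor, Mtor and Deptor were higher, beside 25% of all genes, and Rheb and Tbc1d7 lower, beside 20.8%. Among the markers, 9 of 10 of muscle stem cells, 5 of 6 of muscle fibres and 4 of 6 of myogenic differentiation were higher, as were 4 of 7 each of the immune, the fibro-adipogenic and the skin and sebaceous ones. Of the glial ones 4 of 5 were lower, and of the smooth muscle and pericyte ones 3 of 6. Muscle stem cell markers summed to between 1427 and 1781 TPM at day 21, and the part of these lists was not tested. Rheb was at 133 and 150.5 TPM in the libraries labelled WT and 146 and 156 in those labelled KO, all 4 below every library of the other days, and its log2 fold change was -0.45 (SE 0.0569, adjusted p = 0.000148). Without both libraries that Sesn2 contradicts it was -0.44 (adjusted p = 0.000381). Rptor was at 5.36 and 7.75 TPM in the libraries labelled WT and 8.04 and 9.56 in those labelled KO. Its log2 fold change was 0.48 (SE 0.114, adjusted p = 0.00604), or 0.45 without both contradicted libraries. The KO libraries of day 0, at 6.09 and 6.95 TPM, lay inside the range of day 21, and the WT ones, at 3.22 and 3.82, below it.

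Deptor was at 75.1 and 69.3 TPM in the day 21 libraries labelled WT and 68.5 and 59.8 in those labelled KO, above all 4 libraries of day 0. Its log2 fold change was 0.40 (SE 0.0662, adjusted p = 0.000828), or 0.42 without both contradicted libraries (adjusted p = 0.000335). Tbc1d7 fell by 0.48 (SE 0.160, adjusted p = 0.0331), to between 4.61 and 7.97 TPM, and without those 2 libraries by 0.26 (adjusted p = 0.173), which did not pass. It also missed the threshold without day 0 WT replicate 1, day 0 WT replicate 2, day 0 KO replicate 1, day 0 KO replicate 2, day 21 WT replicate 1 or day 21 KO replicate 2, with values from -0.49 to -0.33. Mtor was higher by 0.65 on counts (SE 0.1245, adjusted p = 0.00183), by 0.52 without both contradicted libraries (adjusted p = 0.00522), and by 0.03 with the offset for length (adjusted p = 0.898).

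Against day 7, day 21 had 6 of 10 genes called, against 56.8% of all genes. Of them 3 were higher (Mtor, Rptor and Tsc2) and 3 lower (Tbc1d7, Akt1s1 and Rheb), beside 28.4% of all genes in each direction. Over the same interval 10 of 10 cell cycle genes and 6 of 6 myogenic differentiation markers fell, and 8 of 8 dissociation stress genes, 5 of 5 red blood cell markers and 5 of 7 skin and sebaceous markers rose. Higher were also 4 of 5 glial, 4 of 6 smooth muscle and pericyte and 3 of 7 endothelial markers. Lower were 4 of 6 muscle fibre, 4 of 7 immune and 3 of 7 fibro-adipogenic markers, and muscle stem cell markers had 5 of 10 higher and 4 lower. Their part in the values of the 10 genes was not tested. Tbc1d7 fell by 1.28 (SE 0.160, adjusted p = 6.89e-05), from between 15.0 and 18.3 TPM to between 4.61 and 7.97, with no overlap, and by 1.04 without both contradicted libraries (adjusted p = 0.000288). Rptor rose by 0.48 (SE 0.114, adjusted p = 0.00463), or 0.46 without them (adjusted p = 0.0109). Akt1s1 fell by 0.32 (SE 0.0926, adjusted p = 0.0123), from between 49.4 and 57.7 TPM to between 33.4 and 42.0, or by 0.27 without them (adjusted p = 0.00894). Without day 21 KO replicate 2 alone it fell by 0.21 (adjusted p = 0.0619), and 3 of 10 genes passed.

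Mtor rose by 1.12 on counts between day 7 and day 21 (SE 0.126, adjusted p = 3.17e-05), by 1.01 without both contradicted libraries (adjusted p = 7.03e-05), and stood at -0.07 with the offset for length (adjusted p = 0.664). Tsc2 was higher by 1.75 (SE 0.653, adjusted p = 0.0497) and Rheb lower by 0.15 on the log2 scale, at -0.15 (SE 0.0568, adjusted p = 0.0482). Neither passed without the contradicted libraries, with Tsc2 at 1.21 (adjusted p = 0.281) and Rheb at -0.12 (adjusted p = 0.121). The Rheb call was lost on leaving out any single library but day 21 WT replicate 2, with values from -0.18 to -0.12. That of Tsc2 was lost on leaving out any but day 7 WT replicate 1, day 7 KO replicate 2 or day 21 WT replicate 2, with values from 1.32 to 1.87. Without those 3 it was 2.68, 2.49 and 2.02.

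Between genotypes by label at day 21, 0 of 10 genes passed, against 0.0126% of all genes, with 0.00629% in each direction. At an unadjusted p under 0.05 there were 2 (Rptor and Deptor), beside 2259 of all 15890 genes, and DESeq2 called 1, Rptor. Without both contradicted libraries 1 library per label remained at day 21. The spread in that fit comes from the other groups, so only its fold changes are given here. In 4 of 10 the groups did not overlap, beside 38% of all genes. Rptor had a log2 fold change of 0.61 (SE 0.161, adjusted p = 0.184) and, without both contradicted libraries, of 0.36. Mtor had 0.35 (SE 0.175, adjusted p = 0.402) and 0.04 without them.

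The genes around these 10 were counted in 5 lists. Their values are on counts from the main fit, and were not followed through the offset for length or the other alternatives. The shares of all genes called were 14.8% higher and 12.6% lower in KO at day 0, 25.8% and 21.2% for injury in WT, and 24.7% and 22.2% for injury in KO. The 24 tested genes that carry growth factor, AKT and AMPK signals to the TSC complex had 10 higher and 1 lower in KO at day 0, beside 14.8% and 12.6% of all genes, with a median log2 fold change of 0.42. Irs1, the insulin receptor substrate, was at 6.93 ± 1.10 CPM (SD, n = 2) in WT and 14.7 ± 0.547 in KO, a log2 fold change of 1.08 (SE 0.176, adjusted p = 0.00229). Pik3r1, the regulatory subunit of PI3K, had 0.50 (SE 0.0920, adjusted p = 0.00392). Rps6ka1, which encodes the kinase RSK1 that phosphorylates Tsc2, was lower by 1.21 on the log2 scale, at -1.21 (SE 0.221, adjusted p = 0.00367). At day 7 the list had 0 higher and 1 lower between genotypes, which was Pik3r1 at -0.53 (SE 0.0924, adjusted p = 0.0231).

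After injury the same list had 7 higher and 5 lower in WT and 2 higher and 8 lower in KO. Irs1 rose in WT by 1.76 (SE 0.177, adjusted p = 3.12e-05), and its change in KO less that in WT was -1.56 (SE 0.245, adjusted p = 0.00523). Pik3r1 fell in KO by 1.02 (SE 0.0930, adjusted p = 1.29e-05), and the difference between its changes was -1.025 (SE 0.130, adjusted p = 0.00223). Prkag2, a regulatory subunit of AMPK, fell in both genotypes, by 1.30 in WT and by 1.29 in KO. At day 21 the list had 9 higher and 3 lower than at day 0, beside 25% and 20.8% of all genes, among them Pik3r1 at 0.84 (adjusted p = 8.16e-06) and Prkab2 at 1.36 (adjusted p = 3.88e-05).

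Of 14 tested genes of the Rag GTPases and their lysosomal anchor, which bring mTORC1 to the lysosome, 3 were higher and 2 lower in KO at day 0, near the 14.8% and 12.6% of all genes. Rragd, one of the Rag GTPases, was at 23.2 ± 1.37 CPM in WT and 40.9 ± 0.878 in KO, a log2 fold change of 0.82 (SE 0.119, adjusted p = 0.00137). Lamtor4, a subunit of the Ragulator anchor, was at 22.9 ± 1.40 CPM in WT and 12.1 ± 1.70 in KO, a log2 fold change of -0.92 (SE 0.157, adjusted p = 0.00272). After injury these genes took opposite directions in the 2 genotypes: Rragd rose in WT by 0.54 and fell in KO by 0.91, and Lamtor4 fell in WT by 0.53 and rose in KO by 0.59. The difference between the changes was -1.45 for Rragd (SE 0.167, adjusted p = 0.00162) and 1.125 for Lamtor4 (SE 0.220, adjusted p = 0.0121). At day 7 Rragd alone of this list passed between genotypes, at -0.63 (SE 0.118, adjusted p = 0.0293).

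Of 12 tested genes of the GATOR complexes and amino acid sensors, the branch on which Sestrins act, 1 was higher and 0 lower in KO at day 0. It was Wdr24, a subunit of GATOR2, with a log2 fold change of 1.00 (SE 0.196, adjusted p = 0.00504). At day 7 none of the 12 passed in either direction. After injury 3 were higher and 2 lower in WT, and 2 higher and 2 lower in KO.

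The 8 genes of mTORC2 and of the factors that assemble mTOR had 2 higher and 0 lower in KO at day 0. Tti1, an assembly factor of mTOR, had a log2 fold change of 1.33 (SE 0.223, adjusted p = 0.00252), and Mapkap1, which encodes the mTORC2 subunit SIN1, had 0.42 (SE 0.0873, adjusted p = 0.00703). After injury the helicase genes Ruvbl1 and Ruvbl2 rose in both genotypes, Ruvbl1 by 0.89 in WT and 0.89 in KO, and Ruvbl2 by 0.83 in WT and 0.68 in KO. The list had 5 higher and 0 lower in WT and 3 higher and 2 lower in KO.

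Of 20 tested substrates and effectors of the complexes, 2 were higher and 3 lower in KO at day 0, near the 14.8% and 12.6% of all genes. Rps6, the ribosomal protein phosphorylated downstream of mTORC1, had a log2 fold change of -0.92 (SE 0.115, adjusted p = 0.000747), and Atg13, an autophagy factor under mTORC1, had 0.60 (SE 0.104, adjusted p = 0.00281). Injury gave 7 higher and 5 lower in WT, beside 25.8% and 21.2% of all genes, and 7 higher and 6 lower in KO, beside 24.7% and 22.2%. Grb10, an adaptor phosphorylated by mTORC1, rose from 114 ± 1.43 to 708 ± 37.7 CPM in WT, a log2 fold change of 2.63 (SE 0.101, adjusted p = 2.54e-07), and by 2.045 in KO (SE 0.0988, adjusted p = 2.89e-07). Eif4ebp1, the translation repressor inactivated by mTORC1, rose by 1.11 in WT and by 1.85 in KO, and the difference between these changes was 0.74 (SE 0.205, adjusted p = 0.0395). Ndrg1, a target of the mTORC2 branch, fell by 1.54 in WT and by 1.09 in KO. These are mRNA levels, which do not measure the phosphorylation of any of these proteins or the activity of either complex.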

How the data were processed

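Bulk RNA-seq of 12 libraries was analysed, 2 per genotype and day. The authors deposited estimated counts per gene, not normalised, TPM of the same genes, and batch-corrected rlog values on the log2 scale; the submitters' processing notes name kallisto 0.46.1 and the builds mm10 and GRCm38.p6. Which batch was corrected is not given in the sources used here.

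Estimated counts were rounded, filtered with filterByExpr and scaled by TMM, and one mean per group was fitted to all 12 libraries with robust quasi-likelihood in edgeR 4.0.16 (R 4.3.3). Each comparison was adjusted by the Benjamini-Hochberg method over 15890 genes, and a gene is called at an adjusted p under 0.05. The SE is the log2 fold change over the square root of F. Fold changes use edgeR's default prior count, and TPM fits in limma 3.58.1 a pseudocount of 1. Among the deposited rows, 31 of those tested repeat another row's symbol and counts, 0 of them among the 10 genes, and each symbol is counted once in the lists. The library kit does not mark strand, so reads of a gene and an antisense partner cannot be told apart. Effective length is the count over the TPM, scaled by genes with 1 transcript, of which 820 of 831 (98.7%) lay within 1 percent of their expected length. Positions and transcripts are from GENCODE M21 (GRCm38), which may not be the annotation used by the authors.

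The 10 genes and the lists of pathway and marker genes were chosen with earlier results of these data known. Besides the 10 genes, the text names Sesn1, Sesn2, Sesn3, Rhebl1, at most 2 called genes with the smallest adjusted p in each direction per pathway list and comparison, and the 3 genes most alike to the member of the widest range. Alternatives were DESeq2 1.42.0, other size factors and filters, an offset for length, a replicate block, limma on TPM and on batch-corrected values, subsets of days, and leaving out each library. The tests were run on simulated counts first. Correlations of replicate deviations between groups lay between -0.143 and 0.07 over 15 pairs of groups, so the replicate numbers do not pair the libraries.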

Additional observations from a re-analysis of the deposited data

Results flagged for a closer look

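The change from day 0 to day 7 differed between the genotypes, by the interaction test of edgeR, for 4 of the 10 genes, against 13.5% of all genes. Beside it, 4 of 10 cell cycle genes and 3 of 6 muscle fibre markers were higher in the same test. On the log2 scale, the change in KO less that in WT was 0.63 for Deptor, 0.49 for Rheb, -1.12 for Tsc1 and -0.92 for Mtor, with adjusted p of 0.0158, 0.0216, 0.0211 and 0.0375. With the offset for length in edgeR Tsc1 was at -1.15 and did not pass (adjusted p = 0.0880). Groups of 2 libraries are too small for a test of single outlying libraries. None of the 10 genes passed without day 0 WT replicate 2, day 0 KO replicate 1, day 0 KO replicate 2 or day 7 WT replicate 2, and with the offset for length Mtor was at 0.0902 (adjusted p = 0.869).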

How the results depend on the processing

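Of 29 called differences of the 10 genes, 10 were called in every alternative: Rptor and Rheb between genotypes at day 0, Rheb for injury in WT, Deptor and Tbc1d7 for injury in KO, Rptor, Deptor and Rheb at day 21 against day 0, and Rptor and Tbc1d7 at day 21 against day 7. Leaving out 1 library at a time, the number of genes called was 3 to 6 at day 0, 0 at day 7 and at day 21 by label, 2 to 4 for injury in WT, 3 for injury in KO, 4 to 7 for day 21 against day 0, 3 to 6 for day 21 against day 7 and 0 to 5 for the interaction. With the offset for length 4 passed at day 0 and 2 in the interaction. With limma on TPM, 3 passed at day 21 against day 0 in all 3 fits, 3 at day 0 with no filter, and 1, 1 and 0 in the interaction. With no filter on counts 2 passed for injury in WT. At day 7, 1 passed (Deptor) in 4 settings: the day 0 and day 7 libraries alone, with and without the offset, the batch-corrected values, and without both contradicted day 21 libraries. DESeq2 called 1 at day 21 by label. The cause of these was not tested.

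Mtor lost its calls in fits with the offset for length, on TPM and on batch-corrected values. It kept its sign at day 0 and at day 21 against day 0, and the values with the other sign elsewhere did not pass (adjusted p from 0.271 to 1.0). Its log2 change for injury in KO was 0.14 with the offset, 0.26, 0.29 and 0.26 with limma on TPM (pseudocount 1, 0.1, and 1 with no filter), 0.14 on batch-corrected values and 0.14 with the offset in the day 0 and day 7 libraries alone. In the same order it was -0.0711, -0.14, -0.16, -0.14 and -0.0766 at day 21 against day 7. In the interaction it was 0.0902 with the offset, 0.0032 with limma at a pseudocount of 1 with and without the filter, 0.11 on batch-corrected values and 0.12 with the offset in the day 0 and day 7 libraries alone.

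The log2 Tsc1 to Tsc2 ratio at day 7 less day 0 was 5.18 in WT alone and 1.03 in KO alone, and that of Deptor to Mtor was -0.0888 in WT alone, 0.45 in KO alone and 0.82 on estimated counts. With the replicate block, 4 genes instead of 6 passed at day 21 against day 7, where Tsc2 and Rheb lost their calls. In the interaction 3 instead of 4 passed, where Mtor lost its call. The other counts were the same (7 at day 0). Over all genes, calls at day 0 ranged from 1667 to 6091 beside 4356, at day 7 from 15 to 1169 beside 280, and at day 21 by label from 0 to 1200 beside 2, the highest without both contradicted libraries. The fit without both contradicted libraries holds only 1 library per label at day 21. The small number of libraries (2 per group) limits the precision, most for Tsc2, whose standard errors were the largest.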
